A study of Homo sapiens with 2 samples.

Results

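The enzymes of serine synthesis and of folate-bound one-carbon metabolism were followed in HCT116, a long-established line of human colorectal carcinoma cells, given 1 µM CB-5083 for 8 h or the solvent DMSO for 8 h. CB-5083 blocks p97 (gene VCP), an ATPase that extracts ubiquitinated proteins for degradation. The 9 genes were taken by symbol (PHGDH, PSAT1, PSPH, SHMT1, SHMT2, MTHFD1, MTHFD1L, MTHFD2 and ALDH1L2), and all 9 were found among the 21115 genes of the deposited table. Polyadenylated RNA gave 1 library per treatment, both grown in the same serum-containing medium, and the labels name no further treatment of either culture. With 1 library per treatment there was no replicate check and no test, so a fold compares these libraries, and its 95% exact (Clopper-Pearson) interval covers counting error only. Fewer cells with a transcript and less transcript per cell cannot be told apart in such bulk RNA.

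Serine is made in the cytosol from a glycolytic intermediate by PHGDH, PSAT1 and PSPH in turn. Serine hydroxymethyltransferases pass a carbon unit from serine to tetrahydrofolate and leave glycine, in the cytosol through SHMT1 and in mitochondria mainly through SHMT2. Inside mitochondria MTHFD2 oxidises that unit to formyl-tetrahydrofolate, and MTHFD1L releases formate from it. Formate crosses to the cytosol, and MTHFD1 returns it there to the folate pool that feeds purine and thymidylate synthesis. ALDH1L2 oxidises mitochondrial formyl-tetrahydrofolate to carbon dioxide and yields NADPH. Several of these genes, among them PHGDH, PSAT1, SHMT2 and MTHFD2, are known targets of ATF4, the transcription factor of the integrated stress response.

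The CB-5083 library held 31997723 estimated counts and the DMSO library 29273746. Levels are given as CPM, estimated counts relative to the library total, after TMM scaling between the libraries, and the log2 ratio is that of CB-5083 over DMSO with 1 CPM added to each, which makes the ratio of weakly expressed genes too small. Where genes are counted, higher or lower means a log2 ratio of at least 1 in size, a fold of 2, with at least 5 CPM in 1 library. The 5 epithelial markers (EPCAM, CDH1, KRT8, KRT18 and KRT19) lay between 47.2 and 501 CPM and summed to 1667 CPM with CB-5083 and 1117 CPM with DMSO. The 4 colon markers (CDX1, CDX2, VIL1 and LGR5) did not reach 5 CPM and summed to 2.92 CPM with CB-5083 and 3.82 CPM with DMSO, CDX1 being at 0 in both. The fibroblast markers summed to 3.62 CPM with CB-5083 and 2.52 CPM with DMSO, the endothelial ones to 0.112 CPM with CB-5083 and 0.123 CPM with DMSO, and the blood markers PTPRC, CD3E and HBB were at 0. VCP stood at 269 CPM with CB-5083 and 148 CPM with DMSO, and HSPA5, the main chaperone of the endoplasmic reticulum, at 21303 CPM with CB-5083 and 1282 CPM with DMSO.

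Start-site sequence from RefSeq (GRCh38.p14) was found for 6 of the 9 genes, and 4 stretches are shown. PSAT1 and MTHFD2 have the highest fold of the serine and mitochondrial branches, and SHMT1 has the lowest ratio. The stretch of MTHFD1L, the mitochondrial synthetase, was cut around its match to a motif named below. Other windows of MTHFD1L and those of PHGDH and MTHFD1 are not shown. They run 5′ to 3′ on the gene's strand, and capitals mark CCAAT, the NF-Y box, on either strand (ATTGG on the other) and TGATGNAA, the core of the element bound by ATF4 with C/EBP partners. PSAT1 is chr9:78296875-78297124 on the plus strand, MTHFD2 chr2:74198365-74198561 on the plus strand, MTHFD1L chr6:150866346-150866375 on the plus strand and SHMT1 chr17:18363564-18363800 on the minus strand.
PSAT1: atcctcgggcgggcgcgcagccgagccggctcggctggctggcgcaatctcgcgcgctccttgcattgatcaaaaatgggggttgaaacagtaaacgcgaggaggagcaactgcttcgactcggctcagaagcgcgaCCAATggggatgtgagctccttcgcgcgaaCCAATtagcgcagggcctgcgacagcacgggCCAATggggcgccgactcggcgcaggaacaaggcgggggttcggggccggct
MTHFD2: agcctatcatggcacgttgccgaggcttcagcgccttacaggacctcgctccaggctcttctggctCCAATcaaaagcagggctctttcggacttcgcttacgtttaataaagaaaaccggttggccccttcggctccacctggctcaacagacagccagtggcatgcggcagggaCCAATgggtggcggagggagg
MTHFD1L: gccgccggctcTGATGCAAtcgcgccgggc
SHMT1: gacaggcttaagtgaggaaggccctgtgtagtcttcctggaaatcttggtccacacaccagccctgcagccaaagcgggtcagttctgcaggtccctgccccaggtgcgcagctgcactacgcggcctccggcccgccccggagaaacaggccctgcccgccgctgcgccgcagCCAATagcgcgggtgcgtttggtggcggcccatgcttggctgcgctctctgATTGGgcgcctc
In the 250 bases before the start, PSAT1 held 3 CCAAT boxes, MTHFD2 and SHMT1 2 each, and PHGDH and MTHFD1 1 each. The windows of the 3 clustered MTHFD1L starts shared 1 CCAAT box, 40 bases before the most upstream of them. CCAAT in either direction stood in 32.0% of all 35116 such windows, and 37.0% of the 27305 genes with a window had it. TGATGNAA stood in 3.14% of windows, and 3.89% of genes had it. Among the genes matched here TGATGNAA was found in MTHFD1L, 129 bases before the most downstream of the clustered starts. CACGTG, the E-box that MYC and MAX bind, stood in 6.34% of windows, and 7.73% of genes had it. Here it stood in windows of MTHFD1 (15 bases before the start) and MTHFD1L. No match of one motif shared bases with a match of another in these windows. A match is a description of sequence only, and no factor binding was measured. The MTHFD2 and SHMT1 stretches stop short of the RefSeq start, because GENCODE places exons of other transcripts there. That of MTHFD1L is the 30 bases around its TGATGNAA match. It lies after the most upstream of the clustered starts, whose own window held no TGATGNAA.

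Of the 9 enzymes, PSAT1, MTHFD2 and PHGDH were at least 2-fold higher with CB-5083, none was at least 2-fold lower, 5 passed the filter without reaching the threshold, and ALDH1L2 lay under the filter. Among the 9543 genes that passed the filter, 7.22% were higher by this rule and 4.91% lower. The median log2 ratio of the 9 was 0.62, against 0.09 for all genes that passed. Together the 9 took 0.293% of the estimated counts with CB-5083 and 0.141% with DMSO. Their summed level was 3296 CPM with CB-5083 and 1253 CPM with DMSO, a 2.63-fold difference, and without MTHFD2, the gene with the most counts, it was 1557 CPM with CB-5083 and 708 CPM with DMSO, or 2.20-fold.

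**Figure D1:**
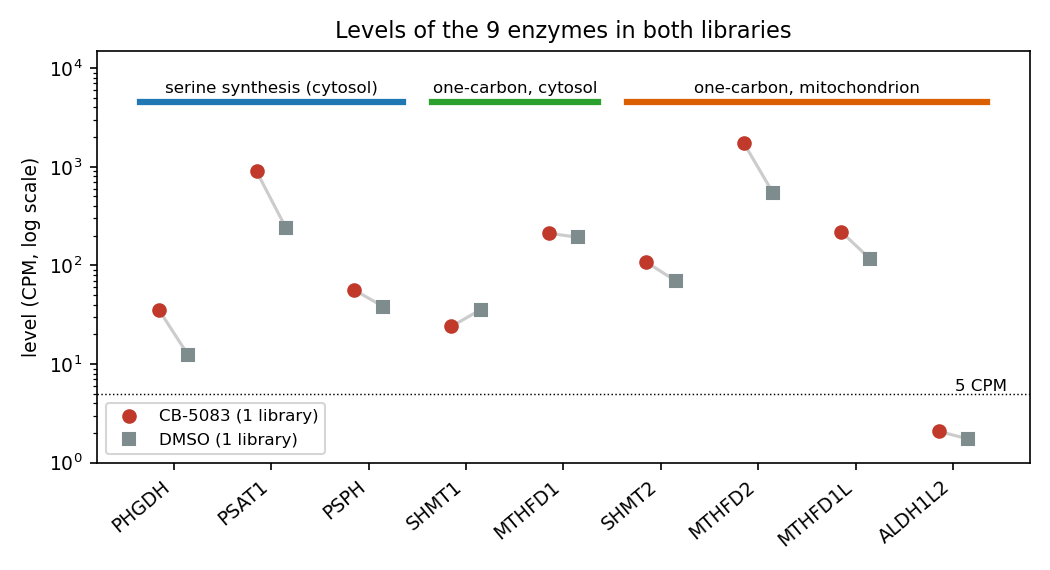
Level of each of the 9 enzymes in CPM on a log axis, in the CB-5083 library (red circles, left) and the DMSO library (grey squares, right), grouped by branch. PSAT1 and MTHFD2 stand highest with CB-5083, at 900 and 1739 CPM, SHMT1 alone has a lower level with CB-5083 on this TMM scale (with library totals MTHFD1 and ALDH1L2 do too), and ALDH1L2 lies under the dotted filter of 5 CPM.

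In the serine branch PSAT1, the second enzyme, had the highest fold. PHGDH, which oxidises phosphoglycerate and commits it to serine, was at 35.3 CPM with CB-5083 and 12.3 CPM with DMSO, a 2.88-fold difference (counting interval 2.56 to 3.24). PSAT1, the aminotransferase that takes its nitrogen from glutamate, was at 900 CPM with CB-5083 and 242 CPM with DMSO (3.72-fold, 3.63 to 3.82). PSPH, the phosphatase that releases serine, was at 56.7 CPM with CB-5083 and 38.2 CPM with DMSO, and its 1.48-fold difference (1.38 to 1.60) stayed short of the threshold. The folds were unequal: that of PSAT1 was 1.29 times that of PHGDH (1.15 to 1.46) and 2.51 times that of PSPH (2.32 to 2.71). Such a ratio of folds does not depend on how the libraries are scaled. Of the 9543 genes that passed the filter, 144 had a higher log2 ratio than PSAT1 and 305 a higher one than PHGDH, while 1774 had a higher one than PSPH.

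The genes nearest to PSAT1 in log2 ratio (of genes reaching 10 CPM) were FGF19, GARS, AMOTL2, HSPA13 and PMAIP1. The absolute difference from its 1.89 was at most 0.0085, and each likeness rests on 2 libraries alone. GARS, which charges tRNA with glycine, was at 1080 CPM with CB-5083 and 291 CPM with DMSO.

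In the mitochondrial branch MTHFD2 passed the threshold and the other genes did not. MTHFD2, the dehydrogenase and cyclohydrolase, was at 1739 CPM with CB-5083 and 545 CPM with DMSO (3.19-fold, 3.14 to 3.25). MTHFD1L, the formyl-tetrahydrofolate synthetase that releases formate, was at 220 CPM with CB-5083 and 116 CPM with DMSO, a 1.90-fold difference (1.83 to 1.98). That is just under 2-fold on the TMM scale, where its log2 ratio was 0.92, and with library totals that ratio was 0.58. SHMT2, which starts the branch, was at 108 CPM with CB-5083 and 70.0 CPM with DMSO (1.54-fold, 1.46 to 1.63). ALDH1L2 was at 2.08 CPM with CB-5083 and 1.75 CPM with DMSO, from 59.1 estimated counts with CB-5083 and 57.5 with DMSO, and its interval of 0.807 to 1.72 held a fold of 1, so no difference was detectable at this depth. Ratios above that of MTHFD2 were held by 210 genes that passed the filter, against 801 for MTHFD1L and 1521 for SHMT2.

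Neither cytosolic one-carbon gene passed the threshold. SHMT1 was at 24.1 CPM with CB-5083 and 35.6 CPM with DMSO, 1.48-fold lower with CB-5083 (1.35 to 1.63). Its log2 ratio of -0.55 was the only one of the 9 below 0 (with library totals MTHFD1 and ALDH1L2 were below 0 too), and 8241 of the genes that passed the filter had a higher one. MTHFD1, which joins synthetase, cyclohydrolase and dehydrogenase in 1 protein, was at 211 CPM with CB-5083 and 193 CPM with DMSO (1.09-fold, 1.06 to 1.13). Its log2 ratio of 0.13 was near the 0.09 of all genes that passed, and with library totals it was -0.21.

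**Figure D2:**
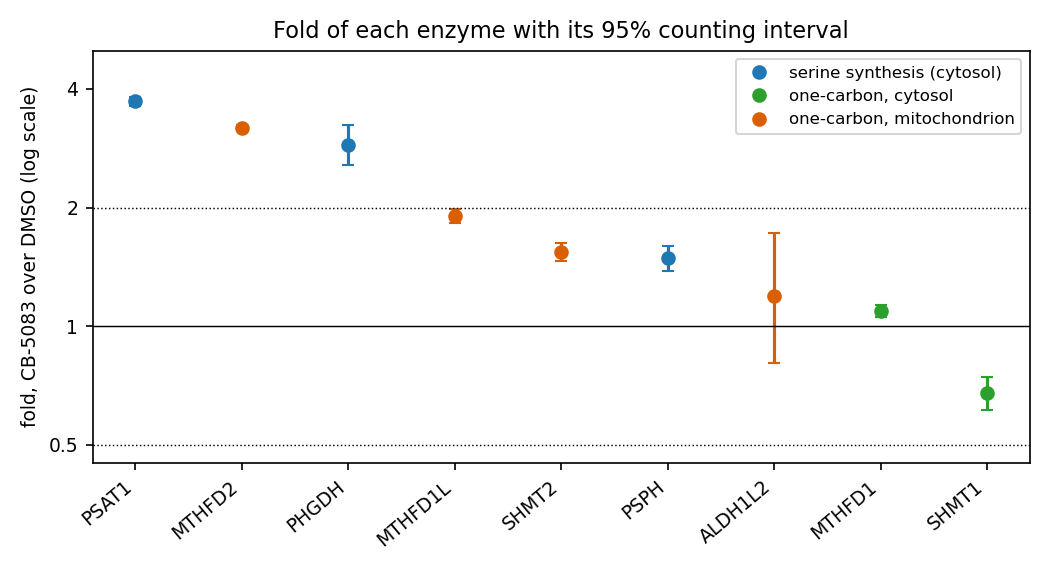
Fold of each enzyme, CB-5083 over DMSO, on a log axis, ordered by size and coloured by branch, with the 95% exact counting interval as bars and dotted lines at 2-fold in either direction. PSAT1, MTHFD2 and PHGDH lie above 2, SHMT1 lies below 1, and the interval of ALDH1L2 crosses 1.

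Set against each other, the compartments differed little in their median log2 ratio as whole groups and more within the matched pairs chosen below. The 4 mitochondrial enzymes had a median log2 ratio of 0.77 and the 5 cytosolic ones, serine synthesis included, 0.56. That difference of 0.21 turned to -0.23 when SHMT1 or MTHFD1 was left out. The summed level of the mitochondrial enzymes was 2069 CPM with CB-5083 and 732 CPM with DMSO (2.83-fold), that of the serine synthesis enzymes 992 CPM with CB-5083 and 292 CPM with DMSO (3.39-fold), and that of SHMT1 with MTHFD1 235 CPM with CB-5083 and 229 CPM with DMSO (1.03-fold). These summed folds depend on the TMM scaling. As a part of the library total, SHMT1 with MTHFD1 took 0.0209% with CB-5083 and 0.0258% with DMSO, the opposite direction. The mitochondrial enzymes took 0.184% with CB-5083 and 0.0824% with DMSO, and the serine synthesis enzymes 0.0881% with CB-5083 and 0.0329% with DMSO.

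In the pairs chosen here for the same step in both compartments, the mitochondrial transcript took a larger share of the pair's counts with CB-5083. MTHFD2L, a second mitochondrial enzyme for the step of MTHFD2, was not among the pairs and went the other way. It had 545 counts with CB-5083 and 726 with DMSO, beside 6009 and 6367 of MTHFD1. SHMT2 held 81.8% of the counts of SHMT1 and SHMT2 with CB-5083 (80.5% to 83.0%) and 66.2% with DMSO (64.6% to 67.8%). Its fold was 2.29 times that of SHMT1 (2.05 to 2.55). MTHFD1L held 51.0% of the counts of MTHFD1 and MTHFD1L with CB-5083 (50.1% to 51.9%) and 37.4% with DMSO (36.5% to 38.4%), a ratio of folds of 1.74 (1.65 to 1.83). MTHFD2 held 89.2% of the counts of MTHFD1 and MTHFD2 with CB-5083 (88.9% to 89.4%) and 73.8% with DMSO (73.3% to 74.4%), a ratio of folds of 2.92 (2.80 to 3.03). MTHFD1 serves in both of the last pairs, so they are not independent. A share within a library does not change with the scaling between libraries, and these are shares of counts, not of molecules, since the transcripts differ in length.

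**Figure D3:**
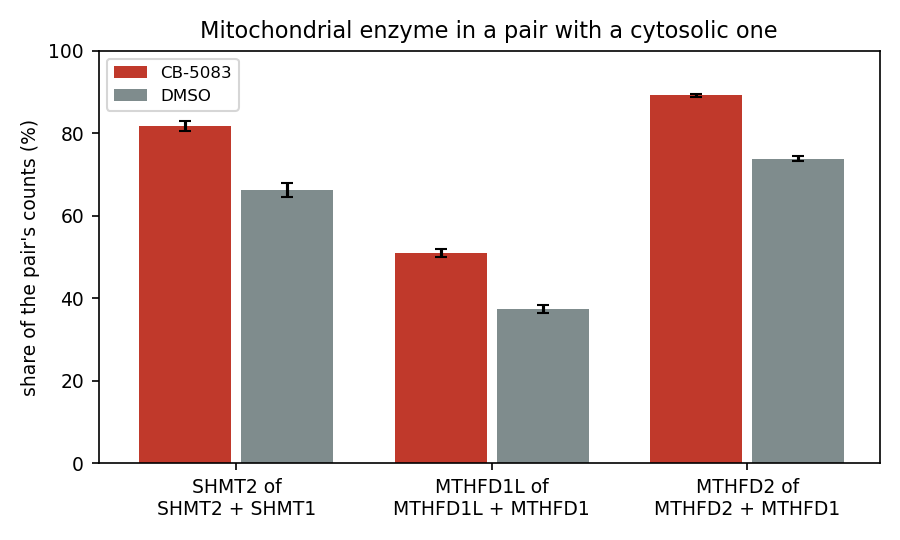
Share of a pair's estimated counts taken by the mitochondrial enzyme, in percent, in the CB-5083 library (red, left bar) and the DMSO library (grey, right bar), with 95% exact binomial intervals. In each pair the CB-5083 bar is higher, by 13.5 to 15.5 percentage points.

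Paralogs outside the 9 were measured too. MTHFD2L, a second mitochondrial dehydrogenase and cyclohydrolase, was at 19.2 CPM with CB-5083 and 22.0 CPM with DMSO, and the fold of MTHFD2 was 3.67 times that of MTHFD2L (3.27 to 4.11). ALDH1L1, the cytosolic counterpart of ALDH1L2, had 2 estimated counts in each library, under the floor of 3, so no fold is given. Whole transcripts were also compared per length, as CPM per kilobase of the longest GENCODE transcript tied to the gene's RefSeq accessions. On that scale PSAT1 had a level of 411 with CB-5083 and 110 with DMSO, and MTHFD2 390 with CB-5083 and 122 with DMSO, so the order of these genes differed between libraries. MTHFD1 followed with a level of 67.4 with CB-5083 and 61.6 with DMSO, and MTHFD1L with 61.0 with CB-5083 and 32.1 with DMSO. SHMT2 had 42.6 with CB-5083 and 27.6 with DMSO. PSPH had 26.6 with CB-5083 and 17.9 with DMSO, and PHGDH 16.8 with CB-5083 and 5.85 with DMSO. SHMT1 had 9.77 with CB-5083 and 14.5 with DMSO, and ALDH1L2 was last with 0.276 CPM per kilobase with CB-5083 and 0.231 with DMSO. With the shortest such transcript in place of the longest, PSAT1 stood above MTHFD2 in both libraries, at 638 CPM per kilobase with CB-5083 and 171 with DMSO, and MTHFD1L, at 209 with CB-5083 and 110 with DMSO, above MTHFD1, so the order depends on the transcript assumed.

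Genes that handle serine and glycine gave 2 higher and none lower, with 15 of 20 found passing the filter and a median log2 ratio of 0.27 over all 20, which was -0.06 with library totals. Of all genes that passed the filter, 7.22% were higher and 4.91% lower by the same rule. In a list this small, 2 calls are not read as a result about the list. SLC38A2, a neutral amino acid importer, was at 3609 CPM with CB-5083 and 999 CPM with DMSO (3.61-fold, 3.57 to 3.66), and SARS (now SARS1), which charges tRNA with serine, at 379 CPM with CB-5083 and 85.2 CPM with DMSO (4.45-fold, 4.27 to 4.64). SLC1A4, another serine transporter, was at 8.56 CPM with CB-5083 and 3.94 CPM with DMSO, a fold of 2.17 (1.74 to 2.70). Its log2 ratio of 0.95 with 1 CPM added stayed under the threshold, and with 0.1 CPM added it counted as higher, which makes 3. SLC6A9, a glycine transporter, had the highest fold of the list, 5.43 (3.28 to 9.44), from 89.0 estimated counts with CB-5083 and 19.0 with DMSO. At 3.13 CPM with CB-5083 and 0.577 CPM with DMSO it lay under the filter, and with a filter of 1 CPM or none it counted as higher, which also makes 3. Both transporters were named after their values were seen. SFXN1, the mitochondrial serine carrier, was at 220 CPM with CB-5083 and 237 CPM with DMSO. GCSH, the carrier protein of the glycine cleavage system, was at 307 CPM with CB-5083 and 302 CPM with DMSO.

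Among 18 genes of the folate cycle none was higher and 1 was lower (2, GGH included, with library totals or the authors' scaling), with 9 passing the filter and a median of -0.27. Beside the shares of all genes, 7.22% higher and 4.91% lower, 1 call in a list this small is not read as a result about the list. TYMS, thymidylate synthase, was at 312 CPM with CB-5083 and 383 CPM with DMSO. The lower gene was SLC46A1, a folate transporter (4.19 CPM with CB-5083, 15.4 CPM with DMSO). The 11 genes of the methionine cycle gave none higher and 1, MAT2A, lower, with 7 passing the filter and a median of -0.08. That median is the ratio of GNMT, which had 0 estimated counts with CB-5083 and 2 with DMSO. MTAP, the methionine salvage phosphorylase, was at 414 CPM with CB-5083 and 461 CPM with DMSO. Of 8 genes of purine synthesis, a pathway that takes formyl units from the cytosolic pool, none passed the threshold (median 0.17, and -0.17 with library totals). PAICS was at 1250 CPM with CB-5083 and 1118 CPM with DMSO, and GART, a formyl-using enzyme, at 521 CPM with CB-5083 and 291 CPM with DMSO (1.79-fold, 1.75 to 1.84).

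Of 16 other amino acid enzymes, 4 were higher and none lower, with 11 passing the filter and a median of 0.32. The shares of all genes that passed were 7.22% higher and 4.91% lower. GOT1, the cytosolic aspartate aminotransferase, was 7.91-fold higher (7.60 to 8.23), ASNS, asparagine synthetase, 6.74-fold (6.54 to 6.95), CTH, which makes cysteine from serine-derived cystathionine, 4.22-fold (3.76 to 4.75) and GPT2, the mitochondrial alanine aminotransferase, 2.22-fold (2.02 to 2.44). GPT2 had a log2 ratio of 0.78 with library totals. ATF4 was at 498 CPM with CB-5083 and 237 CPM with DMSO (2.10-fold, 2.04 to 2.16), with log2 ratios of 0.73 by library totals and 0.98 on the authors' scaling. Of the other stress genes set beside it, DDIT3, which encodes CHOP, was at 351 CPM with CB-5083 and 6.16 CPM with DMSO, and ATF3 at 296 CPM with CB-5083 and 13.0 CPM with DMSO. The folds of GOT1, ASNS and CTH exceeded that of PSAT1, the highest of the 9.

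**Figure D4:**
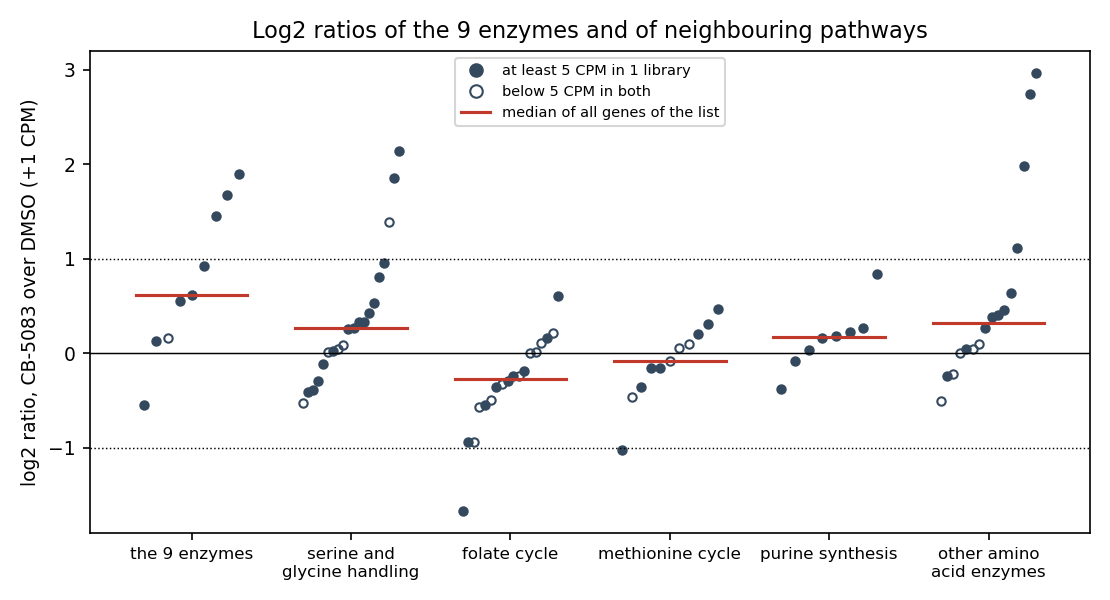
Log2 ratio, CB-5083 over DMSO with 1 CPM added, of the 9 enzymes and of each gene found in 5 neighbouring lists (filled, at least 5 CPM in 1 library; open, below it), with the list median in red and dotted lines at 2-fold. The 9 enzymes have a median of 0.62, the folate cycle genes one of -0.27, and the highest single ratios are those of other amino acid enzymes.

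Some of these values may rest on shared sequence or overlapping loci. GENCODE names 7 pseudogenes of MTHFD2, 4 of PSAT1 and 1 each of PSPH, SHMT1 and MTHFD1. RSEM divides by estimation the reads that fit more than 1 transcript of its reference. No source used here says whether that reference held these copies. In hg19 PSPH is listed on chromosome 7 from 56078744 to 56184090, a span that also holds CCT6A, SUMF2, CHCHD2 and PHKG1. CCT6A was at 1027 CPM with CB-5083 and 927 CPM with DMSO. CHCHD2 was at 302 CPM with CB-5083 and 195 CPM with DMSO, and SUMF2 at 120 CPM with CB-5083 and 98.6 CPM with DMSO. PHKG1 was at 0.035 CPM with CB-5083 and 0.030 CPM with DMSO. The kit marks strand, but no source used here says whether the counting used it, so the value of PSPH is uncertain. The same holds for SHMT1, and with it for the SHMT2 share, and for MTHFD1. SHMT1 overlaps SMCR8, which was at 13.5 CPM with CB-5083 and 19.5 CPM with DMSO, and AX747021, which was at 0.564 CPM with CB-5083 and 0.853 CPM with DMSO. MTHFD1 overlaps ZBTB25, which was at 5.66 CPM with CB-5083 and 7.04 CPM with DMSO. The part of these overlaps in the results was not tested. The genes that overlap SHMT2 (NDUFA4L2) and MTHFD2 (SLC4A5) did not reach 1 CPM in either library. PSAT1 is listed on chromosome 9 from 80912059 to 80945009, MTHFD2 on chromosome 2 from 74425690 to 74442424 and PHGDH on chromosome 1 from 120254419 to 120286849. SHMT2 lies on chromosome 12 from 57623356 to 57628718 and SHMT1 on chromosome 17 from 18231187 to 18266856. MTHFD1 lies on chromosome 14 from 64854759 to 64926725, MTHFD1L on chromosome 6 from 151186815 to 151423023 and ALDH1L2 on chromosome 12 from 105413562 to 105478341. PHGDH, PSAT1, MTHFD1L and ALDH1L2 overlapped no other listed gene of under 1000000 bases.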

How the data were processed

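RNA was measured in 2 HCT116 libraries, 1 per treatment. Per the submitters' processing notes, RSEM 1.2.0 and genome build hg19 were used. No source used here names an aligner. What the authors deposited is a scaled signal, RSEM's estimated count of each gene multiplied by a factor of its library. From the values, the 75th percentile lay at 999.89 with CB-5083 and 999.73 with DMSO. Dividing by the commonest low step, 1.175 with CB-5083 and 1.079 with DMSO, gave back estimated counts, of which 78.5% and 78.1% of the low values (up to 5) were whole within 0.02. The design had assumed unscaled estimates, and CPM were computed from the recovered ones. TMM factors (trims of 30% and 5%) were 0.888 and 1.126. The floor of 3 counts is 0.106 CPM with CB-5083 and 0.091 CPM with DMSO, and intervals and floors cover counting error only. With 1 library per treatment, no p-value was computed. Of 21116 rows, 1 without a value was left out. SDS was not matched by symbol. Starts in hg19 are those of the file plus 1 base. Lengths came from GENCODE release 29. The members and lists were chosen with earlier results of these data known. All 9 members are named, and of each list the genes past the threshold, the gene with the most counts, paralogs of members and some others chosen after their values were seen. Scaling, pseudocount, filter, threshold and list membership were varied. The scripts were tested on simulated data. Software was Python 3.11.15 with scipy 1.17.1, numpy 2.4.6, matplotlib 3.10.9 and pandas 2.3.3.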

Additional observations from a re-analysis of the deposited data

How the results depend on the processing

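PSAT1, MTHFD2 and PHGDH stayed past 2-fold under all 3 other scalings (library totals, median of ratios and the authors' own), both other pseudocounts (0.1 and 5 CPM) and all filters tried, and no member counted as lower under any setting run. At 1.5-fold 5 members were higher and at 4-fold 0. The share of all genes past these other thresholds is not given. Counts at 1.5-fold and 4-fold, here and for the lists below, therefore cannot be set against it. Library totals shift the median of all genes that passed the filter by -0.33 on the log2 scale and the authors' scaling by -0.09. The median log2 ratio was 0.28 and 0.53 under these for the 9 members and 0.43 and 0.68 for the mitochondrial ones, and 0.22 with library totals for the cytosolic ones. MTHFD1 turned to -0.21 and ALDH1L2 to -0.058 with library totals. With library totals the log2 ratio also fell from 0.92 to 0.58 for MTHFD1L, from 0.62 to 0.28 for SHMT2 and from 0.56 to 0.22 for PSPH. The counting intervals do not cover such shifts. With SHMT1 and MTHFD1 alone as cytosolic, their median was -0.21 and the mitochondrial excess 0.98. Leaving out each member in turn moved the median of the 9 to 0.77 without PSPH, SHMT1, MTHFD1 or ALDH1L2 and to 0.74 without SHMT2. It moved the mitochondrial median to 0.92 without SHMT2 or ALDH1L2 and to 0.62 without MTHFD2 or MTHFD1L. The cytosolic median was 0.34 without PHGDH or PSAT1, 0.79 without PSPH and 1.00 without SHMT1 or MTHFD1. The mitochondrial excess was 0.43 without PHGDH or PSAT1, 0.36 without SHMT2 or ALDH1L2, 0.060 without MTHFD2 or MTHFD1L, -0.020 without PSPH and -0.23 without SHMT1 or MTHFD1. These moves follow from medians over 4 or 5 genes. At 1.5-fold, 1 folate cycle gene, 4 serine and glycine genes and 1 purine gene were higher, and at 4-fold 1 serine and glycine gene and 2 other amino acid enzymes. The pair shares moved by less than their counting intervals when deposited values replaced rounded counts. A deposited value is a count times 1 factor of its library, so only rounding could move them, and this is no check of the shares. No replicate could be left out. No paired analysis was possible because each treatment has 1 library.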

Other observations

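Some genes of folate uptake and retention and of the methionine cycle are given here, singled out after their values were seen. SLC46A1, the proton-coupled folate transporter, was at 4.19 CPM with CB-5083 and 15.4 CPM with DMSO, 3.69-fold lower with CB-5083 (counting interval 3.02 to 4.54). SLC19A1, the reduced folate carrier, was at 1.83 CPM with CB-5083 and 4.40 CPM with DMSO, under the filter of 5 CPM. GGH, which removes the glutamate tail that keeps folate in the cell, was at 44.8 CPM with CB-5083 and 86.6 CPM with DMSO, with a log2 ratio of -0.94 that was -1.03 on the authors' scaling and -1.27 with library totals. FPGS, which adds that tail, was at 4.40 CPM with CB-5083 and 3.64 CPM with DMSO, also under the filter. MAT2A, which makes S-adenosylmethionine, was at 288 CPM with CB-5083 and 585 CPM with DMSO, and its log2 ratio of -1.02 lay just past the threshold and was -1.11 on the authors' scaling and -1.36 with library totals.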
